A study of Mus musculus with 6 samples.

Results

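The genes described here make, sense and move cholesterol. They are 30 named genes of cholesterol synthesis, of its control by the sterol regulatory element-binding proteins (SREBPs), and of cholesterol transport, efflux and storage. A gene was measured through the probe sets annotated to its symbol alone, and the brightest one, averaged over the 6 arrays, was used. This gave 27 of the 30 genes, among 22180 genes in all. Acat2 (cytosolic thiolase), Idi1 (isopentenyl diphosphate isomerase) and Soat1 (the enzyme that esterifies cholesterol for storage) had no such probe set and were not analysed here. None of the 27 had a mean in the lowest 25% of genes. The RNA came from whole mouse cerebellum at postnatal day 7, with 3 arrays of Crebbp knockout animals (Math1Cre::CrebbpFl/Fl) and 3 arrays of animals with wild-type Crebbp (Math1Cre), so both groups carried the Cre driver. Math1 (Atoh1) drives Cre in granule neuron precursors, so Crebbp was removed from the granule lineage and not from glia, Purkinje cells or vessels by design. The comparison asks how expression in the developing cerebellum differs when this lineage lacks CREBBP, a lysine acetyltransferase and transcriptional coactivator.

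Cells build cholesterol from acetyl-CoA through mevalonate, farnesyl diphosphate, squalene and lanosterol. SREBP2 (gene Srebf2) switches on nearly all of these enzymes when sterols are scarce. SCAP carries SREBPs from the endoplasmic reticulum to the Golgi, where they are cut and released, and the INSIG proteins hold SCAP back when sterols are plentiful. Cholesterol does not cross the blood-brain barrier to any useful extent, so the brain makes its own: neurons make some during development, astrocytes export it on APOE particles through ABC transporters, and oligodendrocytes make large amounts for myelin. Sterol surplus is sensed by the liver X receptors (LXRs), which raise efflux genes such as Abca1 and also Srebf1.

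Values are log2 expression on an RMA scale, so a change of 1 is a doubling. Each gene was tested with limma across all 22180 genes, and a gene passed at a Benjamini-Hochberg adjusted p under 0.05. "Rose" and "fell" refer to the knockout and are used only for genes that passed. Crebbp itself read 11.46, 11.42 and 11.32 on the knockout arrays and 11.96, 11.99 and 11.90 on the wild-type arrays, with no overlap. The sources used here do not say whether its probe set covers the deleted part. As a check of the tissue, all 10 granule lineage markers had means above 8 on the log2 scale in both groups. Knockout replicates 1 and 3 and wild-type replicate 1 stood apart by high Ttr, the transthyretin gene of the choroid plexus. Ttr read 13.77, 9.19 and 13.92 on the knockout arrays and 12.30, 8.08 and 8.91 on the wild-type arrays. The mean of 11 choroid plexus markers was 8.72, 7.14 and 9.36 in knockout and 7.68, 7.02 and 7.10 in wild type. By that mean, wild-type replicate 1 lay nearer to the low arrays. In whole tissue, fewer cells of a type and less RNA per cell cannot be told apart. The labels do not say that the arrays of a group came from separate animals, so p-values measure the spread between these samples, which may be technical.

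Some of the synthesis enzymes and their main activator were slightly lower in the knockout, while an efflux transporter and the other SREBP gene were higher. Of the 27 genes, 7 fell (Hmgcs1, Fdft1, Sqle, Cyp51, Srebf2, Insig1 and Stard4), 2 rose (Srebf1 and Abca1) and 18 did not pass. Over all 22180 genes, 3.94% fell, 2.72% rose and 6.67% did either, so the share of 33.3% of these genes lay above that background. The 27 genes were brighter than most, with a median level of 9.90 against 7.81 over all genes. With the dimmest 25% of genes left out, 4.18% of the remaining genes rose and 5.89% fell. In that fit 3 of the 27 rose, Apoe in addition, and 7 fell. The changes were small, from -0.41 for Stard4 to 0.34 for Abca1. The median change of the 27 was -0.05, against -0.003 over all genes, and the median size without regard to sign was 0.15, against 0.09. In 15 of the 27 genes the groups did not overlap: 10 were lower in the knockout, as were 13.1% of all genes, and 5 were higher, as were 11.8%. An unadjusted p under 0.05 was reached by 14 of the 27 and by 20.4% of all genes. With 1 array left out, fewer genes passed among the 27 and over all genes. Without knockout replicate 1 or wild-type replicate 1, 2 of the 27 fell, as did 2.38% and 1.65% of all genes. Without knockout replicate 3, wild-type replicate 2 or wild-type replicate 3, 4 of the 27 fell, as did 2.78%, 2.08% and 3.25% of all genes. Without the 3 arrays with Ttr above 10, 1 knockout and 2 wild-type arrays remained, and the median change of the 27 was -0.007. Each of the 9 changes kept its sign there, which was fixed in advance because their groups did not overlap.

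**Figure D1:**
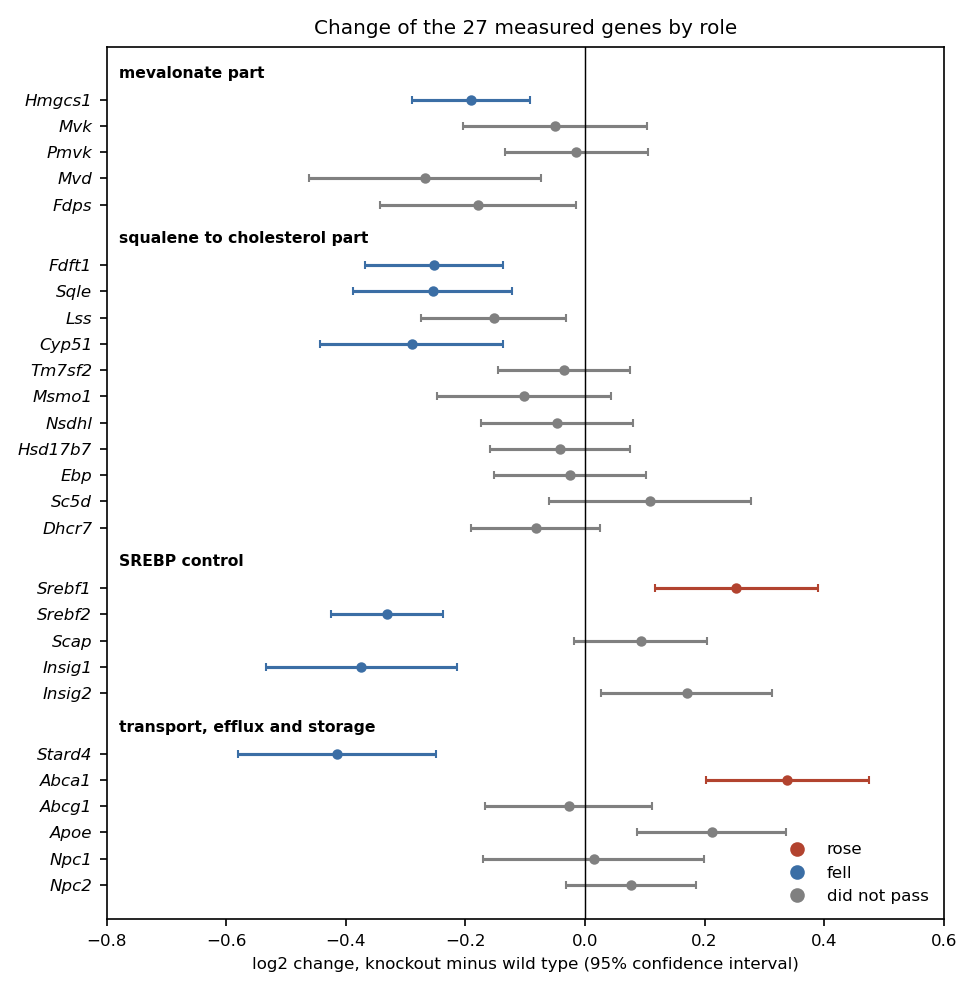
Change of each measured gene (horizontal axis, log2, knockout minus wild type) by role, as the estimate (point) and 95% confidence interval (bar) of the limma fit on 3 knockout and 3 wild-type arrays. Of the 16 synthesis enzymes in the upper groups, 15 lie left of 0 and Sc5d lies right of it, while the control and transport genes lie on both sides.

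In the mevalonate part of the pathway all 5 measured genes had lower means in the knockout, and 1 of them passed. Hmgcs1 encodes the cytosolic synthase that condenses acetyl-CoA units into HMG-CoA. It read 12.14, 12.15 and 12.04 on the knockout arrays, against 12.30, 12.31 and 12.30 on the wild-type arrays. Every knockout array lay below every wild-type array, and the wild-type arrays were nearly equal. Hmgcs1 fell by 0.19 (SE 0.04, limma adjusted p = 0.0326), a 1.14-fold change with a 95% confidence interval of 1.07 to 1.22. With 1 array left out it passed in 1 of 6 fits, that without knockout replicate 2, with changes of -0.21 to -0.16 (adjusted p 0.0444 to 0.126).

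Mvd, the decarboxylase that makes isopentenyl diphosphate, read 9.18, 9.33 and 9.27 in knockout and 9.60, 9.32 and 9.66 in wild type. Wild-type replicate 2 lay within the knockout range. Its change of -0.27 (SE 0.09) did not pass (limma adjusted p = 0.107), but passed without that array, at -0.37 (adjusted p = 0.0203). Fdps, which makes farnesyl diphosphate, the branch point to sterols and to prenyl groups, read 9.42, 9.60 and 9.59 in knockout and 9.74, 9.58 and 9.83 in wild type. The same wild-type array was again the lowest of its group and lay within the knockout range. Fdps changed by -0.18 (SE 0.07, limma adjusted p = 0.200). The kinase genes Mvk and Pmvk changed by -0.05 and -0.01, with intervals of -0.20 to 0.10 and -0.13 to 0.11, and their groups overlapped.

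From squalene synthesis to cholesterol, 10 of 11 measured genes had lower means in the knockout, 3 fell and 0 rose. Those 3 stand at the entry of the branch and at the first step after lanosterol. Fdft1, squalene synthase and the first enzyme committed to sterols, read 10.98, 11.15 and 11.05 in knockout and 11.29, 11.30 and 11.35 in wild type. The groups lay apart, with knockout replicate 2 the nearest to wild type. Fdft1 fell by 0.25 (SE 0.05, limma adjusted p = 0.0190), or 1.19-fold (95% confidence interval 1.10 to 1.29). Sqle, squalene epoxidase, a slow step of the pathway, read 10.26, 10.34 and 10.23 in knockout and 10.52, 10.64 and 10.43 in wild type. Its groups lay apart too, and it fell by 0.25 (SE 0.06, limma adjusted p = 0.0343).

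Cyp51, the demethylase that acts on lanosterol, read 10.10, 10.28 and 9.999 in knockout and 10.37, 10.44 and 10.43 in wild type. The knockout arrays spread more widely than the wild-type arrays and did not reach them. Cyp51 fell by 0.29 (SE 0.07, limma adjusted p = 0.0354), or 1.22-fold (95% confidence interval 1.10 to 1.36). With 1 array left out, Fdft1 passed without knockout replicate 2 or 3 and missed in the other 4 fits (changes of -0.30 to -0.21, adjusted p 0.0124 to 0.0721). Sqle passed without knockout replicate 2 or wild-type replicate 3 and missed in the other 4 (changes of -0.30 to -0.20, adjusted p 0.0252 to 0.115). Cyp51 passed without knockout replicate 2 and missed in the other 5 (changes of -0.37 to -0.23, adjusted p 0.00768 to 0.110). All 3 calls thus ended without knockout replicate 1, wild-type replicate 1 or wild-type replicate 2.

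Lss, the cyclase that turns squalene epoxide into lanosterol, read 9.21, 9.22 and 9.09 in knockout and 9.32, 9.35 and 9.32 in wild type. Its groups did not overlap, but its change of -0.15 (SE 0.05) did not pass (limma adjusted p = 0.141). Dhcr7 and Hsd17b7, the last reductase of the pathway and a ketone reductase, also had no overlap, with changes of -0.08 (limma adjusted p = 0.395) and -0.04 (0.734). Msmo1, which acts on the methyl groups left after Cyp51, changed by -0.10, with an interval of -0.25 to 0.04. The changes of Nsdhl, Tm7sf2 and Ebp, a decarboxylating dehydrogenase, a sterol reductase and an isomerase, were -0.05, -0.04 and -0.02, and their groups overlapped. Sc5d, the desaturase before Dhcr7, was the exception in sign. It read 10.28, 10.45 and 10.21 in knockout and 10.11, 10.33 and 10.18 in wild type, a change of 0.11 (SE 0.08, limma adjusted p = 0.487) with overlapping groups.

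Averaged over the 16 measured synthesis enzymes, the log2 level was 9.88, 10.005 and 9.89 on the knockout arrays and 10.04, 10.02 and 10.07 on the wild-type arrays. The groups lay apart, by little for knockout replicate 2. The median change of the 16 was -0.09. Of the 16, 15 had lower means in the knockout, as did 11282 of all 22180 genes. That count depended on the fit. With marker means of cell types as a covariate (below), it was 10 for choroid plexus, 12 for oligodendrocytes and 16 for astrocytes. Without the 3 arrays with Ttr above 10 it was 11.

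**Figure D2:**
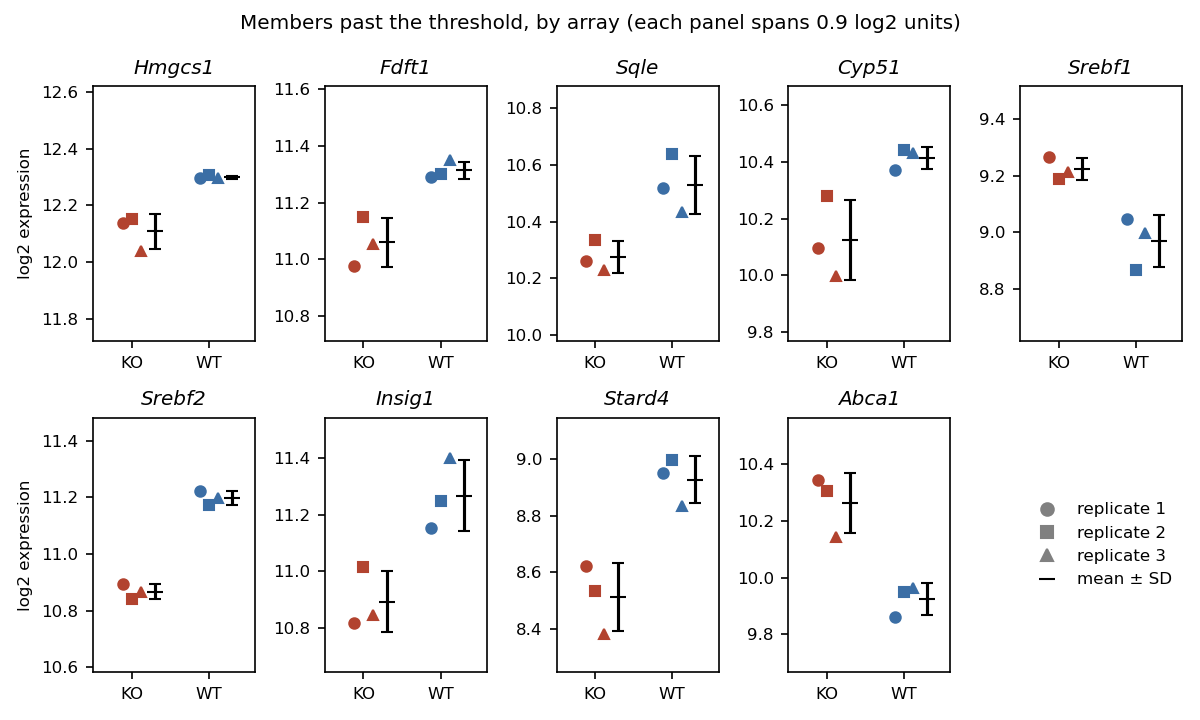
Log2 expression (vertical axis, each panel spanning 0.9 units) of the 9 genes that passed, on the 3 knockout (KO, red) and 3 wild-type (WT, blue) arrays, with the mean and SD of each group in black. In all 9 panels the groups lie apart, and Srebf2 has the narrowest spread in knockout.

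Among the control genes, the pair of SREBP genes moved in opposite directions. Srebf2, the activator of the synthesis enzymes and of its own gene, read 10.89, 10.84 and 10.87 in knockout and 11.22, 11.17 and 11.20 in wild type. Both groups were tight and well apart. Srebf2 fell by 0.33 (SE 0.04, limma adjusted p = 0.00200), or 1.26-fold (95% confidence interval 1.18 to 1.34), the smallest p of the 27 genes. It passed in all 6 fits that left out an array (adjusted p 0.00469 to 0.0186).

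Srebf1 encodes SREBP1a and SREBP1c, and SREBP1c is mainly an activator of fatty acid synthesis. It read 9.27, 9.19 and 9.21 in knockout and 9.05, 8.87 and 8.997 in wild type. All knockout arrays lay above all wild-type arrays. Srebf1 rose by 0.25 (SE 0.06, limma adjusted p = 0.0379), but passed in 0 of the 6 fits that left out an array (changes of 0.20 to 0.29, adjusted p 0.0589 to 0.121) and missed the threshold when each array was centred on its median (0.0516). The probe set does not tell its isoforms apart here.

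Insig1, itself a target of SREBPs and a brake on them, read 10.82, 11.02 and 10.85 in knockout and 11.15, 11.25 and 11.40 in wild type. The highest knockout array stayed below the lowest wild-type array. Insig1 fell by 0.37 (SE 0.07, limma adjusted p = 0.0145), or 1.30-fold (95% confidence interval 1.16 to 1.45), and its call was lost without knockout replicate 1 (adjusted p = 0.0552). Insig2, which holds SCAP in the same way and is not known as an SREBP target, read 8.93, 8.995 and 8.89 in knockout and 8.67, 8.86 and 8.78 in wild type. The knockout arrays were all higher, yet the change of 0.17 (SE 0.06) did not pass (limma adjusted p = 0.163). Scap read 10.27, 10.24 and 10.20 in knockout and 10.19, 10.07 and 10.17 in wild type, a change of 0.09 (SE 0.05, limma adjusted p = 0.341), also without overlap. A second, dim probe set of Scap changed by -0.07 with overlapping groups.

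Of the 6 measured genes of transport and efflux, Stard4 fell, Abca1 rose and 4 did not pass. Stard4, a soluble carrier that moves cholesterol between membranes and a known SREBP target, read 8.62, 8.53 and 8.38 in knockout and 8.95, 8.996 and 8.84 in wild type. It showed the largest change of the 27 genes, and the groups lay apart. Stard4 fell by 0.41 (SE 0.07, limma adjusted p = 0.0105), or 1.33-fold (95% confidence interval 1.19 to 1.49), and missed the threshold without wild-type replicate 1 (adjusted p = 0.0578).

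Abca1, the transporter that loads cholesterol onto apolipoproteins, read 10.34, 10.30 and 10.14 in knockout and 9.86, 9.95 and 9.97 in wild type. The lowest knockout array was above the highest wild-type array. Abca1 rose by 0.34 (SE 0.06, limma adjusted p = 0.0108), or 1.26-fold (95% confidence interval 1.15 to 1.39), with the call lost without wild-type replicate 1 (adjusted p = 0.0641). Apoe, the main apolipoprotein of the brain, read 9.34, 9.42 and 9.31 in knockout and 9.18, 9.07 and 9.17 in wild type. The groups did not overlap, and the change of 0.21 (SE 0.06) just missed the threshold (limma adjusted p = 0.0525). Apoe passed in 3 of 19 other fits. Its limma adjusted p was 0.0415 with dim genes left out, 0.0463 after a second quantile normalization and 0.0433 with array weights. It passed in 0 of the 6 fits that left out an array (adjusted p 0.0638 to 0.159). Centring each array on its median also left it short (0.0963).

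Abcg1, the partner transporter that loads particles already holding lipid, did not share the direction of Abca1: its change was -0.03, with an interval of -0.17 to 0.11. Npc2 and Npc1 hand cholesterol out of the lysosome. Npc2 changed by 0.08 (SE 0.05) and Npc1 by 0.01 (SE 0.08), with overlapping groups, and knockout arrays of Npc1 spread from 9.62 to 9.99 where wild-type arrays spread from 9.79 to 9.82. A second, dimmer probe set of Npc1 changed by 0.11 and did not pass.

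Cell types that make or carry cholesterol were compared in the same arrays, since whole tissue was measured. All 14 measured oligodendrocyte lineage markers had lower means in the knockout (median change -0.42), and 1 of them, the myelin gene Mog, passed. Their mean log2 level was 9.17, 9.59 and 8.82 on the knockout arrays and 9.63, 9.62 and 9.504 on the wild-type arrays. Knockout replicate 2 thus lay within the wild-type range for these markers, and it was also the highest knockout array for Hmgcs1, Fdft1, Sqle, Cyp51 and Insig1, but not for Srebf2 or Stard4. On a summed scale the markers ranged from 13.24 to 13.90 in knockout and from 13.83 to 13.93 in wild type (log2 of the summed linear values). The dimmest, Opalin, averaged 6.01 in knockout and 6.05 in wild type, close to the 25th percentile of all probe sets (6.02). The changes with the largest size were those of Mobp (-0.80), Mog (-0.71) and Mag (-0.66), all genes of myelin.

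Of the 12 astrocyte and Bergmann glia markers, 3 rose (Gfap, Gja1 and Gdf10), Slc1a2 fell and 8 did not pass, with a median of 0.07. Their means were 11.02, 11.07 and 10.94 on the knockout arrays and 10.95, 10.94 and 10.91 on the wild-type arrays, so the groups overlapped. Their summed level ran from 15.41 to 15.52 in knockout and from 15.37 to 15.40 in wild type. Of 9 microglia markers 1 rose (C1qb, median of the list 0.09), with summed levels of 11.99 to 12.15 in knockout and 11.94 to 11.99 in wild type. The 7 vascular markers had a median of -0.03, and 0 passed in limma (0 also had an unadjusted p under 0.05).

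The 11 choroid plexus markers all had higher means in the knockout (median 0.95, 0 passed in limma, 8 at an unadjusted p under 0.05), with summed levels of 11.01 to 14.36 in knockout and 10.84 to 12.74 in wild type. The 7 meningeal markers were also all higher in mean (median 0.35, 0 passed, 5 at an unadjusted p under 0.05), at 13.08 to 13.78 in knockout and 12.80 to 13.13 in wild type. The 10 granule lineage markers, whose lineage loses Crebbp, ran from 14.22 to 14.26 in knockout and from 14.51 to 14.61 in wild type. Of these, 7 fell (Pax6, Zic1, Zic2, Neurod1, Cntn2, Slc17a7 and Rbfox3) and 1 rose (Atoh1). Of the 4 Purkinje cell markers measured 0 passed in limma (1 at an unadjusted p under 0.05), with a median of 0.05.

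**Figure D3:**
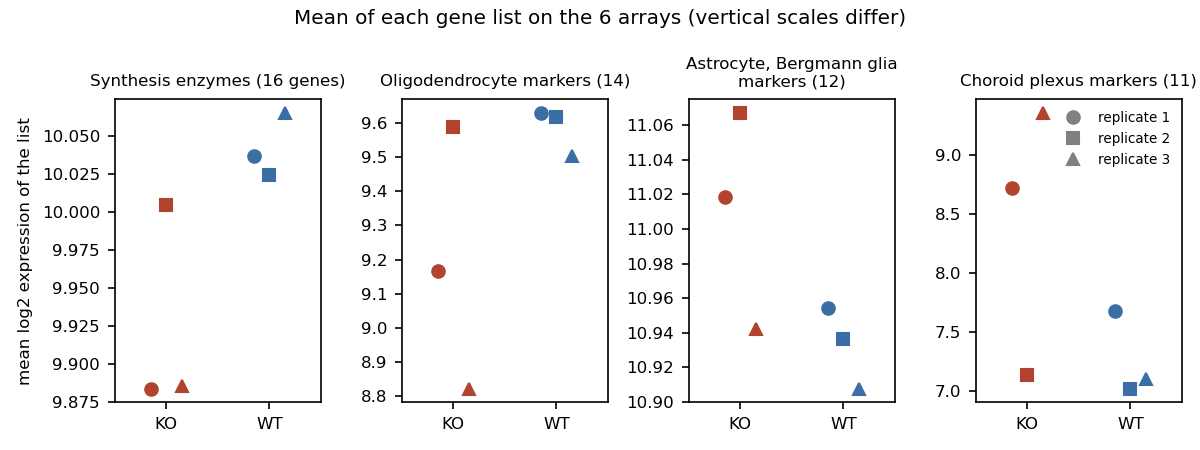
Mean log2 expression (vertical axis, a scale of its own in each panel) of the synthesis enzymes and of 3 lists of cell type markers on the 3 knockout (KO) and 3 wild-type (WT) arrays, with replicates by symbol. Knockout replicate 2 is the highest knockout array for the enzymes and for the oligodendrocyte markers, and the lowest for the choroid plexus markers.

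These marker means were then set beside the group as a covariate, one at a time. With the oligodendrocyte mean, Srebf2 changed by -0.34 (limma adjusted p = 0.0151) and Abca1 by 0.41 (0.0247), and both passed, while the other 7 did not. There Stard4 changed by -0.33, Insig1 by -0.31, Srebf1 by 0.24, Fdft1 by -0.21, Sqle by -0.19, Cyp51 by -0.15 and Hmgcs1 by -0.14 (adjusted p 0.103 to 0.277). Over all genes 1.02% rose and 1.24% fell in that fit. With the choroid plexus mean, Srebf2 changed by -0.35 (0.0161) and Abca1 by 0.41 (0.0252), and of the 9 genes these alone passed. With that mean Stard4 changed by -0.37, Insig1 by -0.26, Srebf1 by 0.21, Sqle by -0.20, Fdft1 by -0.19, Cyp51 by -0.15 and Hmgcs1 by -0.15 (adjusted p 0.0859 to 0.239), and over all genes 1.04% rose and 1.21% fell. With the astrocyte mean, a setting added after the data had been seen, the 7 falls passed, with Stard4 at -0.53 (0.00884) and Cyp51 at -0.42 (0.00967). Abca1 and Srebf1 did not pass there, at 0.26 (adjusted p = 0.0828) and 0.26 (0.118). Over all genes 2.15% rose and 4.86% fell in the fit with the astrocyte mean. A covariate that differs between the groups widens the error of the group term, and 6 arrays allow 1 covariate at a time. Beyond these fits, the part of these cell types in the changes was not tested.

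**Figure D4:**
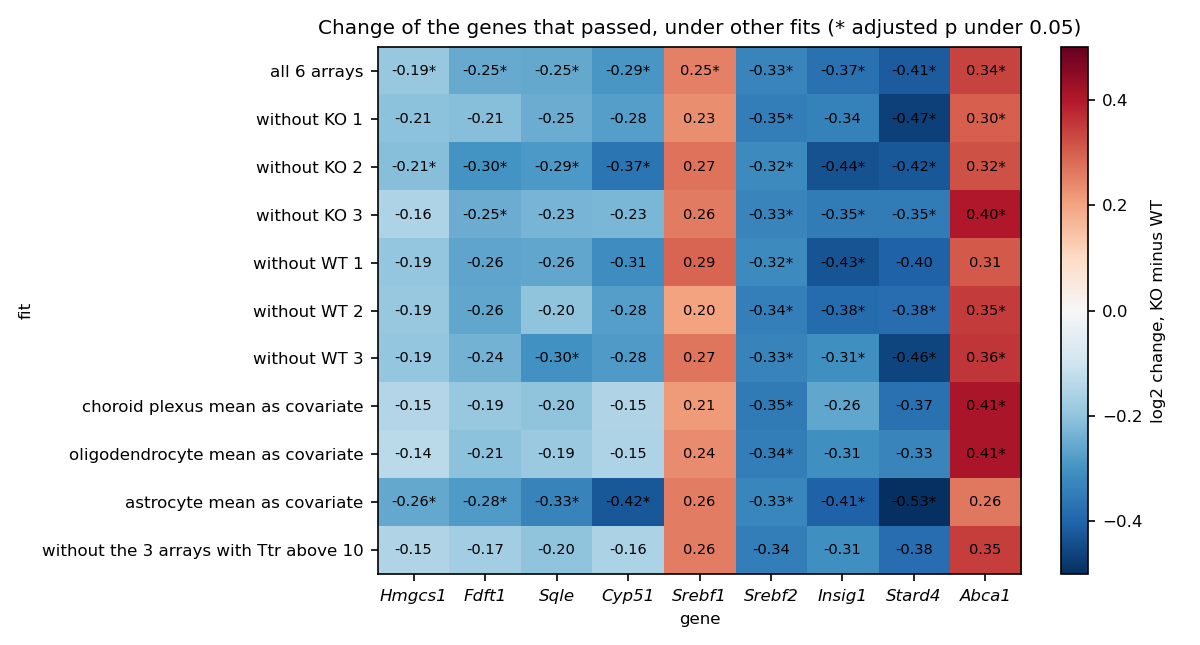
Log2 change, knockout (KO) minus wild type (WT), of the 9 genes that passed with all 6 arrays (columns) under other fits (rows), with an asterisk where the adjusted p was under 0.05. Signs are the same in every cell, and had to be where arrays were only left out, as the groups did not overlap. Srebf2 keeps its asterisk in 10 of 11 rows and Srebf1 has one only with all 6 arrays.

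Other genes of cholesterol handling were read from 6 further lists, in which 53 genes were measured. Of these 4 rose, 2 fell and 47 did not pass, and the median was 0.01. The share called was 11.3%, against 6.67% of all genes. With the dimmest 25% of genes left out, 4.18% of the remaining genes rose and 5.89% fell. The 11.3% lay near that background, but it comes from the fit over all genes. The share of the 53 in the fit without dim genes was not counted. Among lipoprotein receptors and uptake genes, 2 of 9 rose and 1 fell. Mylip, the ubiquitin ligase that degrades lipoprotein receptors, read 9.16, 9.01 and 9.00 in knockout and 8.50, 8.79 and 8.76 in wild type. It rose by 0.37 (SE 0.08, limma adjusted p = 0.0271), and its groups lay apart. Vldlr, a receptor for APOE and reelin, read 9.47, 9.50 and 9.40 in knockout and 9.74, 9.69 and 9.66 in wild type. It fell by 0.24 (SE 0.05, limma adjusted p = 0.0228). Lipa, the lysosomal acid lipase that frees cholesterol from its esters, rose by 0.24 (SE 0.06, limma adjusted p = 0.0385).

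Among LXR, efflux and lipoprotein genes, 2 of 8 rose and 1 fell. Clu, which encodes clusterin (APOJ), a secreted apolipoprotein, read 10.76, 10.72 and 10.90 in knockout and 10.31, 10.28 and 10.24 in wild type. The gap between the groups exceeded the spread within either. Clu rose by 0.52 (SE 0.05, limma adjusted p = 0.000830), and passed in all 6 fits that left out an array and without the arrays with Ttr above 10 (0.46, adjusted p = 0.0411). Pltp, the phospholipid transfer protein, rose by 0.33 (SE 0.08, limma adjusted p = 0.0414), with values of 11.18, 10.99 and 11.28 in knockout and 10.85, 10.68 and 10.94 in wild type. In both groups replicate 2 was the lowest, and with the oligodendrocyte or choroid plexus mean as a covariate the change of Pltp was 0.17 or 0.19 and did not pass (adjusted p = 0.331 and 0.299). Abca7, a transporter related to Abca1, fell by 0.26 (SE 0.07, limma adjusted p = 0.0467). With 1 array left out, Vldlr and Pltp passed without knockout replicate 2 or wild-type replicate 3, Abca7 without knockout replicate 2 and Lipa without wild-type replicate 3, and they missed in the other fits (adjusted p up to 0.112, 0.133, 0.172 and 0.142). Mylip missed without knockout replicate 1 (0.0935) or wild-type replicate 1 (0.0858).

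In the other 4 lists 0 of 36 genes passed in limma, and 5 had an unadjusted p under 0.05, as did 20.4% of all genes. The 3 smallest p among sterol transfer, ester and oxysterol genes were those of Cyp46a1, the neuronal enzyme that clears cholesterol from the brain (-0.21, SE 0.06, limma adjusted p = 0.0751), and of the sterol transfer genes Gramd1a (-0.12) and Gramd1b (-0.13), whose groups also lay apart. The SREBP1 targets of fatty acid synthesis had a median of -0.05 over 12 genes, led by Elovl6 (-0.10, limma adjusted p = 0.258), Scd1 (-0.22) and Elovl5 (0.09). Erlin1, which helps to degrade sterol-sensing proteins, changed by 0.20 (limma adjusted p = 0.221), and Rnf139 and Pgrmc1 of the same list by -0.06 and 0.05. Of the further synthesis enzymes, Idi2, Acat1 and Ggps1 changed by 0.20, -0.06 and 0.08. The value of Idi2 depended on the probe set, at 0.02 with the mean of all its probe sets.

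**Figure D5:**
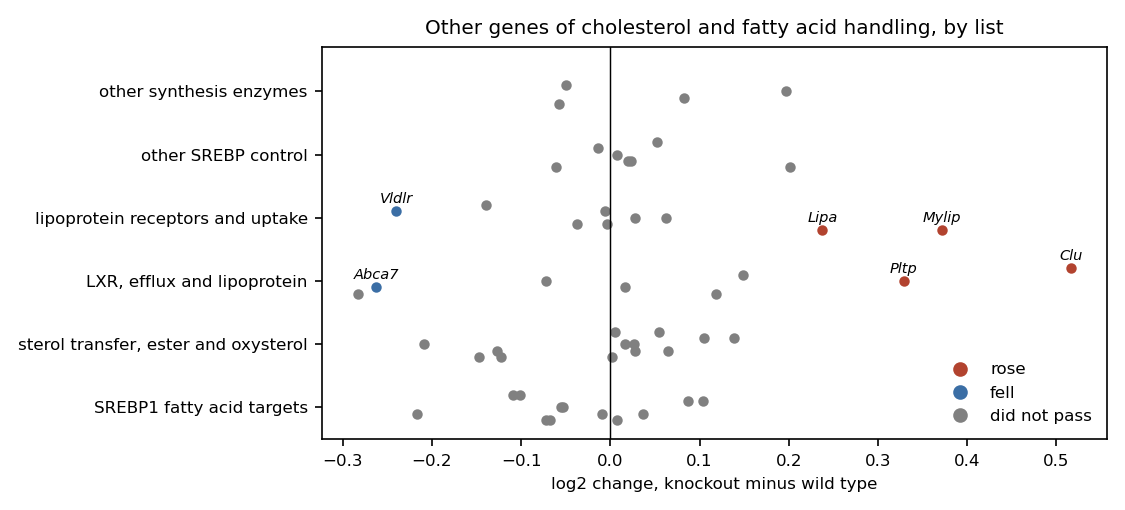
Log2 change (horizontal axis, knockout minus wild type) of 53 other genes of cholesterol and fatty acid handling, one point a gene, by list (rows). The 6 genes that passed are named, and they lie in the lists of uptake and of efflux.

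The promoters of 5 genes that passed are shown, 4 that fell and 1 that rose, since SREBPs and their coactivators, CREBBP among them, act at promoters. RefSeq promoter sequences (GRCm38.p6) were found for 21 of the 27 measured genes. Fdft1, Sqle and Stard4, 3 of the 7 genes that fell, were not among them and were not searched. The 250 bases before each annotated start were searched on both strands. A gene with several starts, such as Insig2, Srebf1 or Dhcr7, counted as a match if any of them had one. The letters sought were the core of a sterol regulatory element (TCACNCCAC) and a CCAAT box (CCAAT, bound by NF-Y, a usual partner of SREBPs). Also sought were a GC box (GGGCGG, bound by SP1), a cAMP response element (TGACGTCA) and its shorter form (TGACG, which lies within it). A further form of the sterol element (ATCACCCC, which shares letters with the core) was added after the Srebf2 sequence had been read. Capitals mark both forms of the sterol element, CCAAT and TGACG on either strand, and sequences run 5′ to 3′ along the gene. They lie at chr13:119690101-119690350 (plus strand) for Hmgcs1, chr5:4104698-4104947 (minus strand) for Cyp51, chr5:28071162-28071411 (plus strand) for Insig1, chr15:82147019-82147268 (plus strand) for Srebf2 and chr4:53159896-53160145 (minus strand) for Abca1, each upstream of an annotated start. The start used for Abca1 lies inside the gene as RefSeq annotates it, so that 93 of its 250 bases fall within the gene, against 0 for the other 4.
Hmgcs1: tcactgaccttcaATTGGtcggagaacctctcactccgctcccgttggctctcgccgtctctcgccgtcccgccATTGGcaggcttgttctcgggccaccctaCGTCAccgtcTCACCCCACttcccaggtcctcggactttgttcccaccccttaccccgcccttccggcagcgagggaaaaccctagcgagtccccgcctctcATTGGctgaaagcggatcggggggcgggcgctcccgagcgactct
Cyp51: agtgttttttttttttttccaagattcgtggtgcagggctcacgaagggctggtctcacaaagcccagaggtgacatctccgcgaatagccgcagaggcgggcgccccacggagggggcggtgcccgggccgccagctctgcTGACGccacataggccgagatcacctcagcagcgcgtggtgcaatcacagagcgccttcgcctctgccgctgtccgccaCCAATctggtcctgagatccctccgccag
Insig1: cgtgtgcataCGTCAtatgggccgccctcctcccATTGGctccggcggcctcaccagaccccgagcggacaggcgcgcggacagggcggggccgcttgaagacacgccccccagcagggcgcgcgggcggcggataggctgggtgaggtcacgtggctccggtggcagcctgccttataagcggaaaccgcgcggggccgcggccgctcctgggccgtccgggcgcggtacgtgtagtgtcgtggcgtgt
Srebf2: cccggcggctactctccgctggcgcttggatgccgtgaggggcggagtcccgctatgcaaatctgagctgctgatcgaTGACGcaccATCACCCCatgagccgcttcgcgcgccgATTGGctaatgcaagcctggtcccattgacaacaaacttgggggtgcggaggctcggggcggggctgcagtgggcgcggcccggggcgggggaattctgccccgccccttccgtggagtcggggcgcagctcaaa
Abca1: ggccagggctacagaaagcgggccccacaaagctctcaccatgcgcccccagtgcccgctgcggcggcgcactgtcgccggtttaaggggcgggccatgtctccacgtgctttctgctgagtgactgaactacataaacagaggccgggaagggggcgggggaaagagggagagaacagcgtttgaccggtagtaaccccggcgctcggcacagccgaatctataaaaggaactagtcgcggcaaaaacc

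CCAAT was found upstream of 18 of the 21 genes, against 38.7% of the 16990 genes tested that had a promoter sequence, and the GC box upstream of 19 of 21, against 46.2%. The short form TGACG was found in 8 of 21, against 23.2%. Among the 5 promoters shown, CCAAT and TGACG both occur in Hmgcs1, Cyp51, Insig1 and Srebf2, the 4 of the 7 falling genes that were searched, and neither in Abca1, which rose. Srebf1, which also rose, held CCAAT and not TGACG. The CCAAT box was also present upstream of genes that did not pass, such as Mvk and Msmo1, and TGACG upstream of Ebp and Insig2, so neither singles out the genes that fell. Of the 21 genes, TCACNCCAC occurred in Hmgcs1 alone (1.22% of genes tested) and ATCACCCC in Srebf2 alone (0.712%). Other forms of the sterol element were not searched, so these counts do not show that the other promoters lack one. The full cAMP response element was found in 0 of 21, against 2.30% of genes tested. A match is a description of these letters in this window and not a bound site.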

How the data were processed

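Total RNA of whole cerebellum was measured on 6 expression arrays. The deposited values are log2 expression for each probe set. Per the submitters' processing notes, RMA and oligo were used; the sources used here give no versions, array build or filter. The values were used as deposited, and array medians ran from 7.25 to 7.29. No detection calls came with them, and the number of arrays limits the precision. Of 41345 probe sets, 23521 had 1 gene symbol in GEO's platform annotation, 1814 several and 16010 none. The brightest probe set of each gene was kept (22180 genes). The test was limma 3.58.1 under R 4.3.3, with lmFit and eBayes and a trend in mean brightness, two-sided, with Benjamini-Hochberg adjustment over all genes. The fit was tested on simulated data. Python 3.11.15 with pandas 2.3.3 and matplotlib 3.10.9 handled tables, promoters and plots. The genes and lists were chosen with earlier results of these data known. All 30 genes are named. Of each further list, every gene that passed is named, or the 3 smallest p where fewer passed. Of marker lists, those that passed are named, and some of those with the largest changes. Alternatives were other priors, scalings, thresholds, probe set rules and array weights, a block for the replicate number, arrays left out and marker means as covariates.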

Additional observations from a re-analysis of the deposited data

How the results depend on the processing

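Of the 19 other fits, 6 leave the change of the 9 genes that passed as it was by construction and can alter only its error (46 of 54 values passed). In the other 13, which reuse the same arrays, the sign was the same in 117 of 117 values, and 64 passed. Where arrays were only left out or weighted, that sign was fixed in advance, since the groups of these 9 genes did not overlap. The counts of calls moved more, over all genes as well as among these. With all 6 arrays 2 genes rose and 7 fell. Both an adjusted p under 0.01 and a prior variance without a trend gave 0 rises and 1 fall (Srebf2), where 0.667% and 0.830% of all genes rose and 1.55% and 1.40% fell, against 2.72% and 3.94% with all settings as reported. Centring each array on its median left 1 rise, and the 7 falls stood. With 1 array left out, 0 to 1 rose and 2 to 7 fell, and the median change of the 27 genes ran from -0.09 to -0.02. Adding the choroid plexus mean as covariate, 1 rose and 1 fell, with a median of 0.0013, and with the oligodendrocyte mean 1 rose and 1 fell. Over all genes 1.04% rose and 1.21% fell with the choroid plexus mean, and 1.02% and 1.24% with the oligodendrocyte mean. With the astrocyte mean, chosen after seeing the data, 0 rose, 7 fell and the median was -0.14, while 2.15% of all genes rose and 4.86% fell. Without the 3 arrays with Ttr above 10, 0 rose and 0 fell in limma, in a fit with 1 knockout array that is assumed to vary like the wild-type arrays. There the cause includes fewer arrays, and otherwise the cause was not tested. Same-numbered arrays did not deviate together (r of 0.01, 0.03 and -0.13), and the replicate block left 2 rises and 7 falls among the 27 genes, though Abca7 lost its call (adjusted p = 0.0703). Without detection calls, the precision of dim genes is not known.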
